A study of Mus musculus with 6 samples.

Results

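The 9 ERK feedback genes Dusp1, Dusp4, Dusp5, Dusp6, Dusp14, Spry2, Spry4, Spred1 and Spred2 were examined in the adult mouse hippocampus with and without p300. They were taken by symbol, as MAP kinase phosphatase, Sprouty and Spred genes, from the 55471 genes of a table of RNA-seq counts, and each of the 9 matched 1 identifier. The table held 6 libraries, each from the hippocampus of 1 mouse: 3 p300-ifKO mice and 3 control littermates. In p300-ifKO mice (inducible forebrain knockout) both floxed Ep300 and a Camk2a-driven creERT2 transgene are present, so that tamoxifen deletes part of Ep300 in excitatory neurons of the adult forebrain, whereas interneurons, glia and vessels keep the gene and contribute RNA to the same library. All 6 mice were C57BL/6 males aged between 3 and 6 months, and all received tamoxifen by gavage 5 times, dissolved at 20 mg/ml in corn oil. The treatment protocol gives the controls as littermates without creERT2, although the driver is also named in the description field of the control libraries. The truncated p300 that remains in the targeted neurons lacks the acetyltransferase domain. No stimulus is named for these mice.

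ERK (extracellular signal-regulated kinase) is the last kinase of a relay from growth factor receptors and synaptic calcium through Ras, Raf and MEK to the nucleus. Active ERK induces transcription of its own inhibitors. MAP kinase phosphatases, encoded by Dusp genes, remove the activating phosphates from ERK and related kinases. Sprouty and Spred proteins act higher in the relay, where they limit the activation of Ras and Raf. In hippocampal neurons some of these genes belong to the programs induced by activity. The coactivators CBP and p300 are recruited to the promoters of many activity-induced genes by CREB, which binds the cyclic AMP response element (CRE).

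RefSeq promoter windows (GRCm38.p6, from 250 bases before to 50 after the start site) were at hand for 7 of the 9 genes, and those of Dusp1 and Dusp5 are shown because they held the CRE and the CArG boxes, sites bound by CREB and by serum response factor. Capitals mark the CRE (TGACGTCA), its shorter form TGACG on either strand, and CArG boxes.
Dusp1 (chr17:26508423-26508722, minus strand): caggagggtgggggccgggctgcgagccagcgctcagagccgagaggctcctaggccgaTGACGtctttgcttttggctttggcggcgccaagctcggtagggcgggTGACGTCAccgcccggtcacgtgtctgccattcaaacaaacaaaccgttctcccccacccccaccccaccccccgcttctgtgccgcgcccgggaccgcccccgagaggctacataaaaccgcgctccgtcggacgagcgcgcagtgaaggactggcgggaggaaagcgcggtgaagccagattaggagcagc
Dusp5 (chr19:53528895-53529194, plus strand): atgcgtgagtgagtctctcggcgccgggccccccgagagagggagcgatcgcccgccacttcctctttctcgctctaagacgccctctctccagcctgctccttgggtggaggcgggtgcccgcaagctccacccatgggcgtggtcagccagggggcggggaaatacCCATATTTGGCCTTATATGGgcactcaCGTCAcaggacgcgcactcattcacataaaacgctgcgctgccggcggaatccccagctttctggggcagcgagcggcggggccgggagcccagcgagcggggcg

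The CRE of Dusp1 began 143 bases before the start site, and the 2 adjoining CArG boxes of Dusp5 began 82 and 72 bases before it. The full CRE was found in 1 of the 7 windows (Dusp1) and in 1.79% of all 32851 windows. A CArG box was found in 1 of 7 (Dusp5) and in 1.63% of all windows. The shorter TGACG, which the full CRE contains, was in 3 of 7 (Dusp1, Dusp5 and Spred2) against 20.8%, and the GC box GGGCGG in 5 of 7 against 35.7%. The 7 windows were richer in G and C, with 57.0% (Spred2) to 72.3% (Spred1) against a median of 52.7% over all windows. The shares were not adjusted for this. The AP-1 site TGANTCA (7.81% of all windows), the ETS site CCGGAAGT (3.89%) and the EGR site GCGTGGGCG (0.612%) were in 0 of 7. These are matches of letters on both strands and say nothing of binding.

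Libraries held between 23151568 and 28433823 counts. The 9 genes together took between 6858 counts (p300-ifKO replicate 1) and 11277 counts (p300-ifKO replicate 2) of a library, and the lowest count of a member in a library was 203, for Dusp4. Values below are normalized counts (counts divided by the DESeq2 size factor of the library) unless a level per length is named. The libraries differed in a trend with gene length: the ratio of a library to the average of all 6 was correlated with exonic length over 17071 genes (not independent of each other), with a Spearman rho between 0.16 and 0.41 in control mice, and of −0.50, 0.41 and −0.28 in p300-ifKO replicates 1, 2 and 3. This trend ran in part with the groups, and the part of each cannot be told apart. Ep300 itself had 1545, 1474 and 2334 normalized counts in controls against 478, 1350 and 912 in p300-ifKO mice, so that p300-ifKO replicate 2 lay closest to the controls. Its log2 fold change (p300-ifKO over control) was −0.97 (SE 0.33). Within each group Ep300 ran in the order of rho. The parts of deletion and of the length trend in that order cannot be told apart. Across all genes, DESeq2 called 2 at an adjusted p under 0.05, Esr1, whose human form is part of creERT2, and Arsi, a neighbour of Camk2a, and both were higher in p300-ifKO mice. Markers of hippocampal excitatory neurons (Camk2a, Slc17a7, Neurod6, Prox1, Wfs1 and Zbtb20) were detected in the libraries, with 0 of 6 at zero counts. Of the 6, 5 had a negative log2 fold change and 1 a positive one, and 0 were called. The values ran from −0.44 for Zbtb20 to 0.074 for Slc17a7, with a median of −0.12.

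Levels were first compared between the genes, as counts divided by exonic length and by library total (FPKM). The order in control mice was Spred1 (17.4 ± 1.55, SD, n = 3), Spred2 (17.0 ± 0.507), Spry2 (16.4 ± 0.807), Dusp6 (15.8 ± 0.916), Dusp14 (13.3 ± 0.782), Dusp5 (8.06 ± 0.551), Dusp4 (5.83 ± 0.675), Dusp1 (4.82 ± 1.22) and Spry4 (3.53 ± 0.356). Both Spred genes, Spry2 and Dusp6 thus formed an upper set whose neighbours overlapped between control mice, whereas Dusp6 and Dusp14, and Dusp14 and Dusp5, did not overlap. Dusp5 and Dusp4 did not overlap either, whereas Dusp4 overlapped with Dusp1, and Dusp1 with Spry4. In p300-ifKO mice, Dusp14 (14.9 ± 3.49) overlapped with Dusp6 (14.9 ± 3.26), and Dusp5 (10.3 ± 0.842) lay above Dusp4 (4.40 ± 1.23) in each mouse. The lowest member, Spry4, was at the 72.4 percentile and the highest, Spred1, at the 91.5 percentile of genes with any count, ranked on the mean level per length in control mice.

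**Figure D1:**
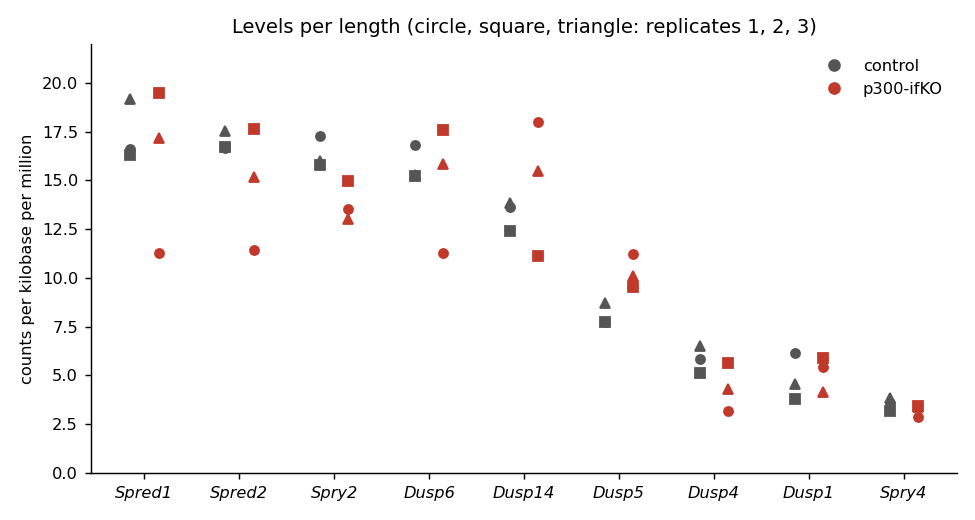
Level per length of each ERK feedback gene (y axis, FPKM) in each mouse, in the order of the control mean, with controls in grey and p300-ifKO mice in red. In controls Spred1, Spred2, Spry2 and Dusp6 lie highest and Spry4 lowest, whereas in p300-ifKO replicate 1 Dusp14 is the highest, and p300-ifKO replicate 1 (red circle) lies below each control for Spred1, Spred2 and Dusp6.

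The effect of p300 loss was then asked for each gene. In DESeq2, 0 of the 9 genes passed an adjusted p under 0.05, against 0.0061% of the 32773 genes tested, and the adjusted p of all 9 was 0.991. In edgeR also 0 of 9 passed, against 0.0117% of 17131 genes. Ep300, the targeted gene, missed the same threshold despite its log2 fold change of −0.97. After adjustment its p stood at 0.991 by the Wald test of DESeq2, while the edgeR test left it at 0.745. Missing this threshold therefore does not show that a gene was unchanged. At an unadjusted p under 0.05 there was 1 of 9 in DESeq2 (Dusp5), against 1.32% of all genes, and there were 2 of 9 in edgeR (Dusp5 and Spry2), against 2.30%. In 2 of 9 genes, Dusp5 and Spry2, the groups did not overlap, against 6.58% of the 12252 genes with a mean normalized count of at least 100. Of the 9, 3 had a positive log2 fold change (Dusp1, Dusp5 and Dusp14) and 6 a negative one, with a median of −0.13. The median was −0.046 over all genes tested and −0.0044 over the genes with a mean of at least 100. For each of the 9, the 95% interval of the fold (p300-ifKO over control) lay inside a 2-fold change in either direction, between 0.546 at the lowest bound, for Dusp4, and 1.53 at the highest, for Dusp5.

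**Figure D2:**
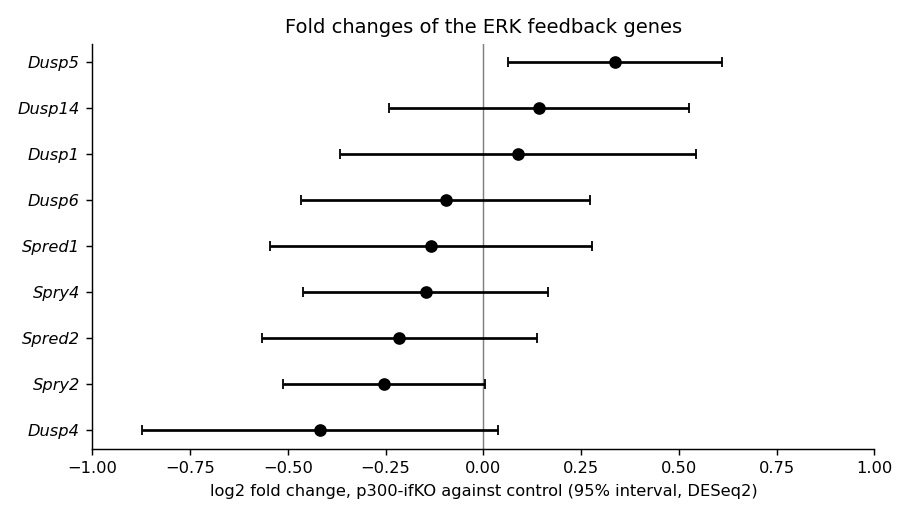
Log2 fold change of each ERK feedback gene in p300-ifKO against control mice (x axis, points) with its 95% interval from DESeq2 (bars). The interval of Dusp5 lies above 0, that of Spry2 reaches 0.0051, and the other 7 include 0.

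Of the nuclear phosphatases, Dusp1 (ENSMUSG00000024190, chromosome 17, 26505590 to 26562128 on GRCm38) encodes MKP-1, an immediate early product that acts on p38, JNK and ERK. It had 508, 317 and 375 normalized counts in controls against 448, 492 and 336 in p300-ifKO mice. Each group held both high and low mice, and the groups overlapped along most of their range. The means were 400 ± 97.9 and 425 ± 80.7 (SD, n = 3), with a log2 fold change of 0.088 (SE 0.23). Dusp1 was the most variable member among controls, with a coefficient of variation of 24.5%, where the other 8 lay between 2.57% for Spred2 and 10.6% for Dusp4. The immediate early genes Fos (236, 113 and 300 in controls, 150, 357 and 137 in p300-ifKO mice) and Egr1 (2365, 1641 and 2604, then 1929, 2818 and 1930) shared with Dusp1, and also with Dusp4 and Spry4, a lowest control value and a highest p300-ifKO value in replicate 2. Their log2 fold changes were −0.0095 (SE 0.42) and 0.014 (SE 0.23).

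Dusp4 (ENSMUSG00000031530, chromosome 8, 34807297 to 34819894), which encodes the nuclear phosphatase MKP-2, had 400, 358 and 443 normalized counts in controls against 218, 390 and 290 in p300-ifKO mice. Replicates 1 and 3 of p300-ifKO lay below each control, and replicate 2 lay among the controls. The means were 400 ± 42.3 and 299 ± 86.2 (SD, n = 3), with a log2 fold change of −0.42 (SE 0.23), the lowest of the 9. The 95% interval ran from 0.546 to 1.03 as a fold, so that at this spread neither a level of 0.546 of the control nor an equal level lay outside it. The value moved with single p300-ifKO libraries in both directions. The log2 fold change of Dusp4 was −0.24 without replicate 1, −0.65 without replicate 2 and −0.15 with 1 surrogate variable. Replicate 2 had both the highest Ep300 and the highest rho with gene length among p300-ifKO mice. The parts of the 2 cannot be told apart. Without replicate 2, DESeq2 gave Dusp4 an adjusted p of 0.0338, and it was the 1 member called. In that fit the mean-count filter of DESeq2 left 11129 of the 32019 genes with a p for adjustment, of which 938 were called (8.43%). Adjusted over all 32019 genes, an alternative added after seeing the data, the adjusted p of Dusp4 from DESeq2 was 0.0877, 0 of the 9 members passed, and 119 genes (0.372%) did. At an unadjusted p under 0.05 there were 5 of the 9 members without replicate 2, against 12.8% of all 32019 genes. That share also covers the genes below the mean-count filter, which all 9 members passed, so the 2 shares are not alike. The share over the 11129 genes alone was not computed.

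Dusp5 (ENSMUSG00000034765, chromosome 19, 53529109 to 53542431) encodes a nuclear phosphatase selective for ERK. It had 478, 486 and 536 normalized counts in controls against 690, 594 and 613 in p300-ifKO mice, and every p300-ifKO mouse lay above each control. The means were 500 ± 31.1 and 632 ± 50.6 (SD, n = 3), a log2 fold change of 0.34 (SE 0.14). Before adjustment, p was 0.0158 in DESeq2 and 0.0192 in edgeR. The fold change was the highest of the 9, and it stayed between 0.27 and 0.39 under each of the 14 alternatives, with an adjusted p between 0.0929 and 1 in DESeq2 and edgeR. An antisense gene, AC137853.2, shares 547 exonic bases with Dusp5 and had between 4 and 11 counts per library. The strand setting of the counting is not stated, so that reads of the shared stretch cannot be assigned.

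Dusp6 (ENSMUSG00000019960, chromosome 10, 99263231 to 99267489) encodes MKP-3, the cytoplasmic phosphatase selective for ERK. It had 1314, 1213 and 1190 normalized counts in controls against 877, 1383 and 1215 in p300-ifKO mice. Replicate 1 of p300-ifKO was the lowest library and replicate 2 the highest, so that the control mice lay within the range of the p300-ifKO mice. The log2 fold change was −0.097 (SE 0.19). Dusp14 (ENSMUSG00000018648, chromosome 11, 84048041 to 84069261), the gene of a small phosphatase without the amino-terminal docking domain of the other phosphatases here, had 662, 614 and 670 in controls against 871, 543 and 737 in p300-ifKO mice. Its order among p300-ifKO mice was the opposite of that of Dusp6, with replicate 1 highest and replicate 2 lowest. The log2 fold change was 0.14 (SE 0.20).

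**Figure D3:**
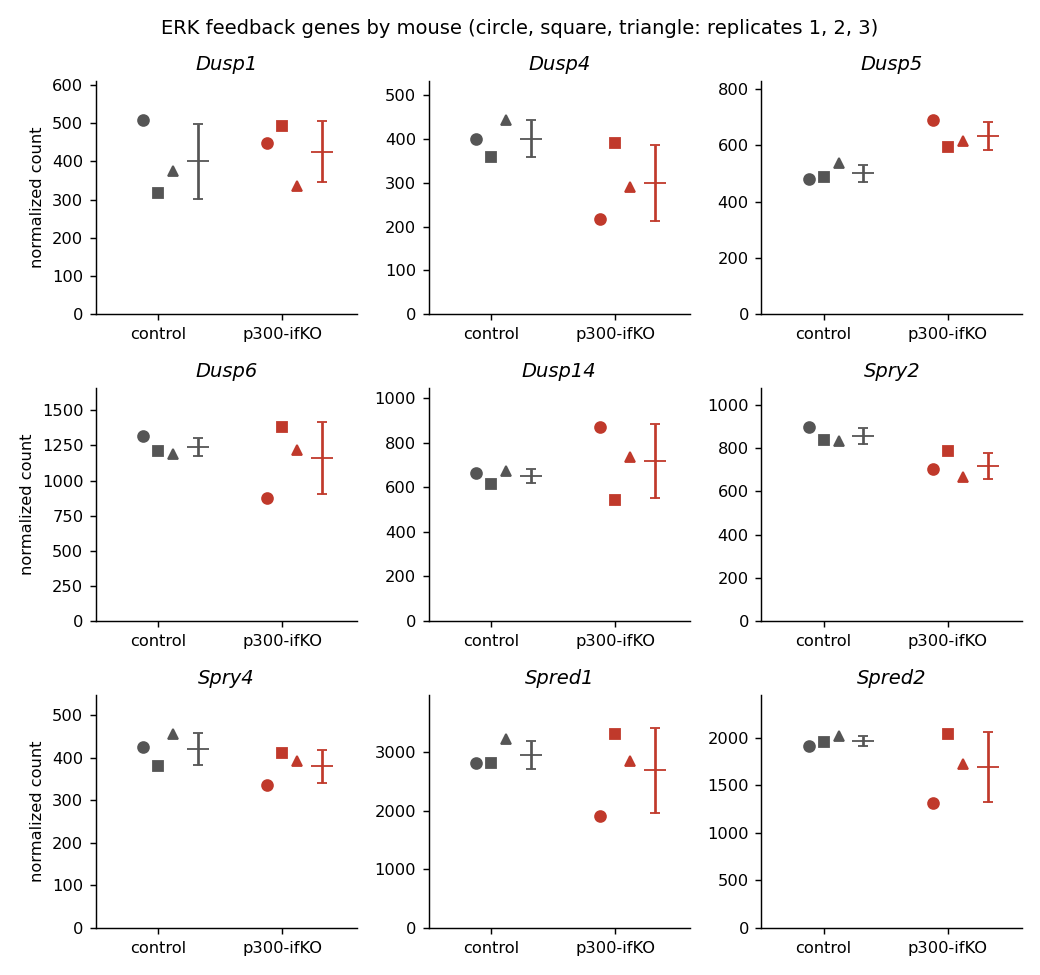
Normalized counts (y axis, from 0) of the 9 genes in each mouse, with controls in grey and p300-ifKO mice in red; the bar beside the points is the mean ± SD of 3 mice. The groups do not overlap for Dusp5, higher in p300-ifKO mice, and Spry2, lower in p300-ifKO mice, and overlap for the other 7.

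Sprouty proteins are membrane-bound inhibitors of signalling from receptor tyrosine kinases. Spry2 (ENSMUSG00000022114, chromosome 14, 105891947 to 105896819) had 899, 837 and 832 normalized counts in controls against 703, 785 and 665 in p300-ifKO mice, and every p300-ifKO mouse lay below each control. The means were 856 ± 37.3 and 718 ± 60.9 (SD, n = 3), with a log2 fold change of −0.25 (SE 0.13). The unadjusted p was 0.0547 in DESeq2 and 0.0481 in edgeR, and edgeR gave an adjusted p of 0.745. Under the 14 alternatives the log2 fold change of Spry2 stayed between −0.33 and −0.20. Spry4 (ENSMUSG00000024427, chromosome 18, 38586247 to 38601415) had 425, 381 and 457 in controls against 336, 411 and 393 in p300-ifKO mice, which overlapped, and its log2 fold change was −0.15 (SE 0.16).

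Spry2 is also expressed by glia, and the 5 astrocyte markers were read beside it. Their summed normalized counts were 37965 to 39502 in controls against 35473 to 36823 in p300-ifKO mice, without overlap. Slc1a3, a glutamate transporter of astrocytes that was singled out after its values were seen, was the largest part of these sums. Its means were 20359 in controls and 17146 in p300-ifKO mice, without overlap, whereas the groups overlapped for Aqp4, Gfap, Aldh1l1 and Gja1. Slc1a3 had a log2 fold change of −0.25 (SE 0.12, and before adjustment p was 0.0316 in DESeq2). Gfap had the highest, 0.17, and none of the 5 was at 0 in the libraries. Of the 5, 3 were lower and 2 higher, with a median of −0.036 and 0 called in either tool. As a background to Slc1a3, non-overlap was seen in 6.58% of the 12252 genes with a mean of at least 100. In DESeq2, 1.32% of the 32773 genes fell below 0.05 before adjustment. The part of astrocyte RNA in the Spry2 difference was not tested. In tissue RNA, fewer cells of a type and less RNA per cell cannot be told apart.

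Spred proteins bind neurofibromin and bring it to the membrane, where it switches Ras off. Spred1 (ENSMUSG00000027351, chromosome 2, 117121374 to 117182279), whose exons sum to 6784 bases, had 2812, 2817 and 3236 normalized counts in controls against 1906, 3323 and 2851 in p300-ifKO mice. Spred2 (ENSMUSG00000045671, chromosome 11, 19924375 to 20024026, 4619 exonic bases) had 1918, 1960 and 2018 in controls against 1316, 2045 and 1720 in p300-ifKO mice. In both genes p300-ifKO replicate 1 was the lowest library and replicate 2 the highest, and the groups overlapped. The log2 fold changes were −0.13 (SE 0.21) for Spred1 and −0.21 (SE 0.18) for Spred2. Spred1 and Spred2 had the most similar profiles of the 36 pairs of members, with a root mean square difference of 0.085 between their centred log2(normalized count + 1) values over 6 libraries, followed by Dusp6 and Spred2 with 0.090.

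How far single libraries and the length trend carried these values was read from alternative fits, of which that with length offsets was also limited to genes with a mean count above 10. On the scale of centred log2(normalized count + 1) values, p300-ifKO replicate 1 lay lowest for Dusp4 (−0.64), Spred1 (−0.54), Spred2 (−0.46), Dusp6 (−0.44) and Spry4 (−0.25) and highest for Dusp14 (0.37) and Dusp5 (0.30). Dusp14, Spry2 and Dusp5 have the shortest exonic lengths of the 9 (1945, 2087 and 2473 bases). Length did not order all of these values. Spry2 was below its mean in p300-ifKO replicate 1 (−0.15), and Dusp4, the next shortest (2740 bases), had the lowest value there. With length offsets, the log2 fold change was 0.030 for Dusp14 and −0.049 for Spred1, and it was −0.46 for Dusp4, 0.27 for Dusp5 and −0.33 for Spry2. Without p300-ifKO replicate 1, Dusp4 was −0.24, and Dusp6 (0.067), Spred1 (0.062) and Dusp14 (−0.022) had the opposite sign. Dusp4, Dusp5, Spry2, Spry4 and Spred2 kept their sign under each of the 14 alternatives, and the other 4 did not. A kept sign did not mean a stable size: Spred2 was −0.064 without p300-ifKO replicate 1, −0.029 with 1 surrogate variable and −0.37 without p300-ifKO replicate 2. Spry4 was −0.069 without p300-ifKO replicate 1 and −0.028 with 1 surrogate variable.

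**Figure D4:**
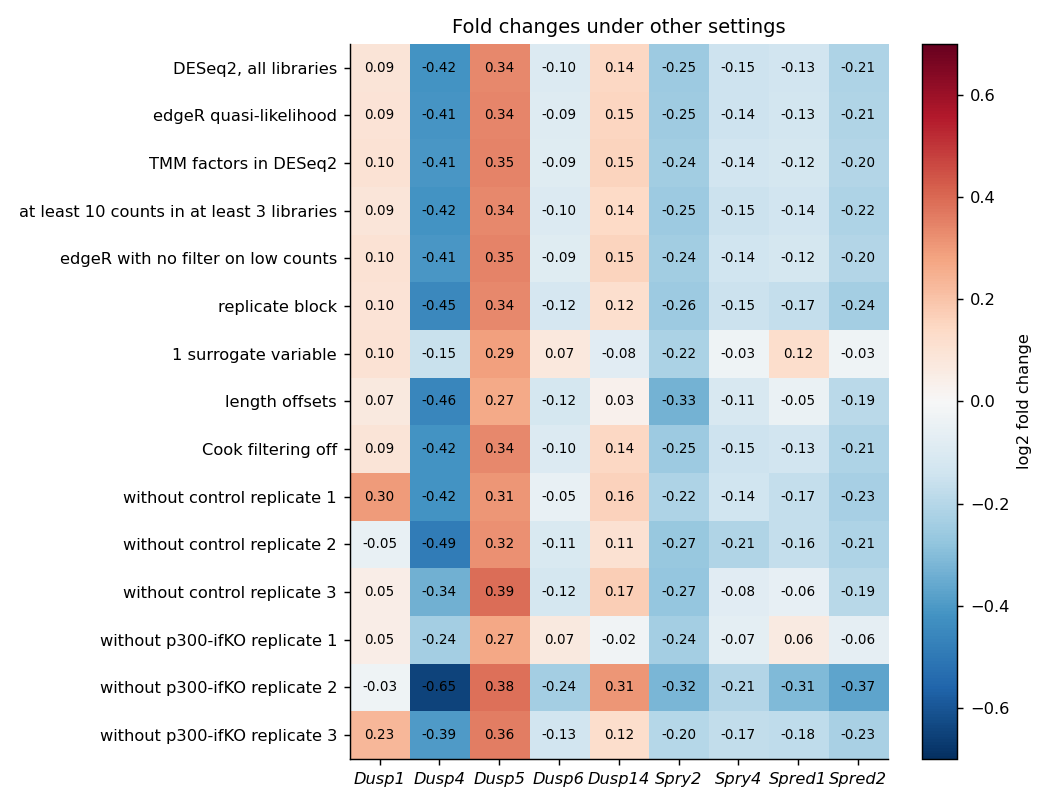
Log2 fold change (colour and printed value) of each ERK feedback gene (x axis) in p300-ifKO against control mice in the DESeq2 fit with all libraries (top row) and under each alternative (rows below). The columns of Dusp5 (0.27 to 0.39) and Spry2 (−0.33 to −0.20) vary least in relation to their size, and the value of −0.65 for Dusp4 came without p300-ifKO replicate 2.

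The rest of the ERK pathway was examined through 84 further genes, grouped by role, of which 83 matched an identifier. Of the 83 in DESeq2 and the 82 that edgeR tested, 0 were called and 0 had an unadjusted p under 0.05. Of the 83, 23 had a positive and 60 a negative log2 fold change, with a median of −0.14, beside −0.13 for the 9 feedback genes. Over the 12252 genes with a mean normalized count of at least 100, 50.7% were negative. Without p300-ifKO replicate 1, 54 of the 83 were negative, with a median of −0.038, and without p300-ifKO replicate 2, 63 were, with a median of −0.24. These genes were not read in the fits with length offsets or a surrogate variable, so the part of the length trend was not tested. The other members of the feedback families (7 phosphatases, Spry1 and Spred3) lay between −0.20 for Spry1 and 0.034 for Dusp8. Of the other ERK phosphatases, Ptpn5, which encodes the striatal-enriched phosphatase STEP, had the highest value, 0.013, and Ptpn7, the lowest, had 0 to 2 counts in a library and is given no fold.

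Among ligands, values ran from −0.50 for Nrg1 (neuregulin) to 0.19 for Ntf3 (neurotrophin-3), and 6 of 7 were negative. Among receptors they ran from −0.41 for Erbb4, a neuregulin receptor, to 0.12 for Fgfr2, and 10 of 11 were negative. In 9 of these 10 the lowest library was p300-ifKO replicate 1, and without it 8 of 11 were negative. Adaptors and Ras exchange factors ran from −0.80 (SE 0.75) for Shc3 to 0.030 for Rasgrf1. The value of Shc3 (133, 115 and 429 normalized counts in controls, then 75.2, 219 and 93.5) rested on control replicate 3, without which it was 0.068. Values ran in Ras GTPase-activating proteins from −0.38 for Rasal2 to 0.0014 for Rasal1. Both groups leaned to negative values, with 9 of 11 and 5 of 6. The relay itself ran from −0.27 for Ksr2, a scaffold, to 0.31 for Hras, with 9 of 13 negative. Kinases downstream of ERK were divided 3 to 3, from −0.29 for Rps6ka3 to 0.24 for Rps6ka1. Transcription factors and other ERK targets were divided 8 positive to 9 negative, from −0.46 for Ccnd1 (cyclin D1) to 0.37 for Ier3, with a median of −0.0095.

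**Figure D5:**
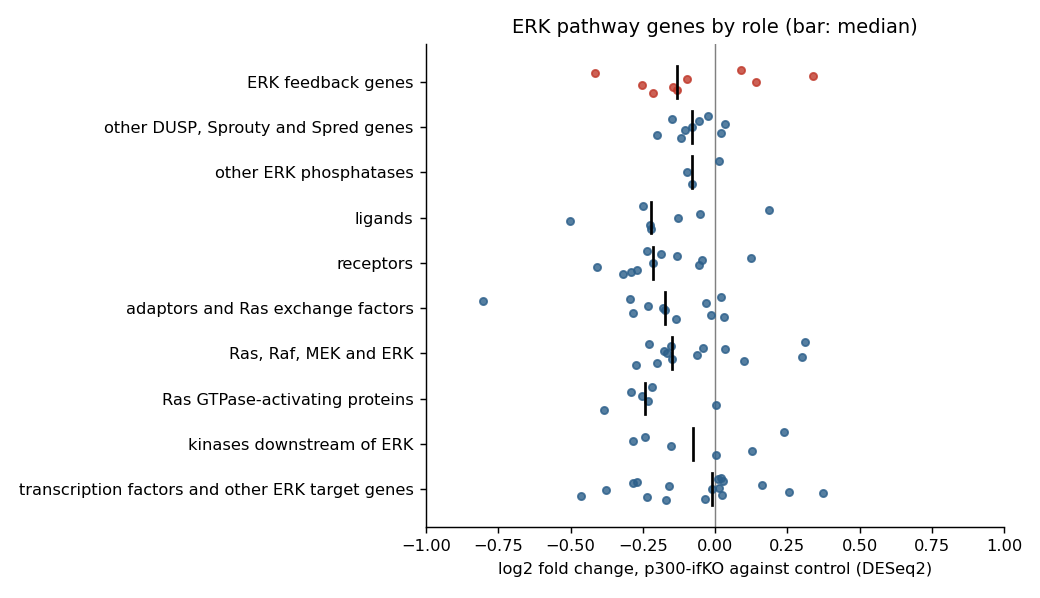
Log2 fold changes in p300-ifKO against control mice (x axis, DESeq2) of the 9 ERK feedback genes (red) and 83 other ERK pathway genes (blue) by role, with the median of each role as a bar. The medians lie between −0.24 for Ras GTPase-activating proteins and −0.0095 for transcription factors and other targets.

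Markers of other cells that could carry these transcripts were read in the same way. Summed normalized counts of the 5 markers of a type overlapped between the groups for interneurons, oligodendrocytes, oligodendrocyte precursors, microglia, endothelium and choroid plexus. The range was widest for its level in choroid plexus markers, 727 to 3617 in controls against 1333 to 5281 in p300-ifKO mice, and the oligodendrocyte markers had positive log2 fold changes in 5 of 5 (median 0.22), with sums of 85237 to 113656 in controls against 93845 to 119669. Medians of the 6 types lay between −0.16 for endothelium and 0.34 for choroid plexus. The choroid plexus median was the value of 1 gene near the floor, Kcnj13 (SE 1.11). It had 1 to 13 counts in a library and was not tested in edgeR. None of the markers of these types was at 0 in the 6 libraries together, and 0 were called in DESeq2 or edgeR. Taken singly, the groups did not overlap for Gad1 (interneurons) and Pecam1 (endothelium), lower in p300-ifKO mice. Nor did they for Csf1r (microglia), which was higher. Over the genes with a mean of at least 100, 6.58% did not overlap. The part of these cell types in the values of the 9 ERK feedback genes was not tested.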

How the data were processed

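Hippocampal RNA from 6 mice (3 control, 3 p300-ifKO) had been sequenced as single-end reads of 50 bases. The deposited table holds raw counts per gene, which the authors made by trimming with Trim Galore 0.6.4, aligning with STAR 2.6.1 to GRCm38, keeping reads above a mapping quality limit and counting them on exons of Ensembl genes with Rsubread. That limit lowers the counts of genes with near-identical copies. Of the 50-base stretches of each member, 20.54% (Dusp5), 1.34% (Spred2), 1.32% (Dusp14) or 0% (the other 6) were shared with another gene. The Dusp5 share is the overlap with its antisense gene at the same place in the genome, so the limit does not bear on it.

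Groups and replicate numbers came from the sample titles. Identifiers were matched to GENCODE M21 on the same build (99.57% of 55471). The main test was the two-sided Wald test of DESeq2 (version 1.42.0, R 4.3.3), the tool the study names, with median-of-ratios size factors, no covariate, and Benjamini-Hochberg adjustment at 0.05 over the genes that pass its mean-count filter (all 32773 with a p with every library kept, and 11129 of 32019 without p300-ifKO replicate 2). The edgeR (4.0.16) quasi-likelihood test with TMM factors and filterByExpr was run beside it. Intervals are 95% Wald intervals. Levels between genes used the exonic length in the table. Both fits were tested on simulated data.

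The members and gene lists were chosen with earlier results of these data known. Named genes were the members, Ep300, Crebbp, Fos, Egr1, any list gene past the threshold and the highest and lowest of each list, and the 3 genes most like the members; others (the 2 genes called, the overlapping gene, Slc1a3) were added after their values were seen. Alternatives were edgeR with and without a filter, TMM factors, genes kept only with 10 or more counts in 3 or more libraries, a replicate block, 1 surrogate variable (sva 3.50.0), smooth length offsets per library (mgcv 1.9.3, genes with a mean above 10), Cook filtering off, a threshold of 0.1 for counts of calls, and each library left out. Per gene this made 14 alternatives.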

Additional observations from a re-analysis of the deposited data

How the results depend on the processing

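With all libraries kept, 0 of the 9 ERK feedback genes were called under each alternative, at a threshold of 0.1 too. Leaving out each mouse in turn called 0 or 1 of the 9 and from 2 to 938 genes in all; the 1 member (Dusp4, −0.65) and the 938 genes came without p300-ifKO replicate 2. Adjusted over all genes with a p (added after seeing the data), that fit called 119 genes and 0 members. Over these fits the median log2 fold change of the 9 ran from −0.24 to −0.022, and with 1 surrogate variable it was −0.028. With a replicate block 4 genes were called in all, and 0 members. Whether equal numbers mark paired mice is not known. Over 12252 genes, the correlation of deviations from the group mean was 0.39 for replicate 1, −0.40 for replicate 2 and 0.28 for replicate 3. With 3 mice a group and a length trend in the libraries, these values cannot decide it. Signs turned with 1 surrogate variable for Dusp14 (−0.078), Dusp6 (0.072) and Spred1 (0.12), without p300-ifKO replicate 1 for Dusp14 (−0.022), Dusp6 (0.067) and Spred1 (0.062), and for Dusp1 without control replicate 2 (−0.051) and, separately, without p300-ifKO replicate 2 (−0.028). With a mouse left out, Dusp1 reached 0.30 (without control replicate 1), Dusp14 0.31 and Spred1 −0.31 (both without p300-ifKO replicate 2). The cause was not tested. With 3 mice a group, the SE of a member was between 0.13 and 0.23 on the log2 scale.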

Other observations

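Crebbp, which encodes CBP, the paralogue of p300, had 2089, 1984 and 2180 normalized counts in controls against 1957, 2055 and 2008 in p300-ifKO mice, with a log2 fold change of −0.055 (SE 0.11) and a 95% interval of the fold from 0.833 to 1.11.

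Averaged over the 9 ERK feedback genes, the centred log2(normalized count + 1) value was 0.092, −0.048 and 0.094 in controls against −0.19, 0.10 and −0.057 in p300-ifKO mice, so that the groups overlapped. Of the 9 genes, 8 lay above their own mean in p300-ifKO replicate 2 and 3 in p300-ifKO replicate 1. The profiles nearest to this average among 12244 other genes with a mean normalized count of at least 100 were those of Myo1c, Zfp607b and R3hdm2, with root mean square differences of 0.016, 0.020 and 0.021 over 6 libraries.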
